A study of Rattus norvegicus with 19 samples.

Results

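RNA from putative enhancers was compared between depolarized and control cortical neurons of the rat. The cortex libraries are 6 of the 19 in the study, 3 from cultures treated with KCl and 3 from cultures treated with vehicle, and they were chosen by the letter C in the sample titles. All were primary neuron cultures from embryonic day 18 brain. At 11 days in vitro they received KCl or vehicle (Neurobasal medium) for 1 h. Each cortex library was read at the same 27538 transcriptionally active putative enhancers (TAPEs), intergenic stretches of open chromatin that give RNA from both strands. Of these, 1870 TAPEs (6.79%) had enough reads to be tested. The sample labels give no genotype or strain difference between the groups. The cultures contain every cell type that survived dissection and plating, and nothing in the labels ties a library to 1 animal or litter, so p-values measure the spread between these libraries.

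The labels conflict in 2 places. The sample labels give KCl at 25 mM, whereas the series text gives 10 mM, and the tissue label of cortex vehicle replicate 3 reads striatum. Neurod6, a transcription factor of cortical and hippocampal pyramidal neurons, stood at 86.6 RPM (reads per M library reads) in cortex vehicle replicate 3 and at 85.8 to 101 RPM in the other 5 cortex libraries, against at most 0.129 RPM in any striatum library. Ppp1r1b, a phosphatase inhibitor of striatal projection neurons, stood at 4.77 RPM in that library and at 108 to 119.7 RPM in striatum. Sox5, a factor of deep-layer cortical neurons, stood at 141 RPM there and at most at 46.5 RPM in any hippocampus library. The library was therefore kept as cortical. Library totals ran from 46.4 to 72.5 M reads in cortex, and a tested TAPE held a median of 12 reads per cortex library.

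Raised extracellular potassium depolarizes neurons, opens voltage-gated calcium channels and drives calcium-dependent kinases to the nucleus. There they act on CREB and on SRF with its partners, which bind the cAMP response element (CRE) and the CArG box and switch on immediate early genes without new protein synthesis. The first products are mostly transcription factors such as Fos, Egr and Nr4a proteins. They are followed by effectors of synaptic change and by phosphatases and kinases that damp the signal. Active enhancers of such genes are themselves transcribed into enhancer RNA (eRNA), so RNA at a TAPE can be read beside RNA of the genes around it.

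The clearest enhancer sequences in this study are those around Fos, the immediate early gene whose product forms part of the AP-1 factor. The study designed guides against 3 Fos enhancers, and by their positions they fall in 3 TAPEs tested here, at 37.8 and 18.5 kb upstream of the Fos start site and 13.4 kb past it on the 3' side. They are shown because they fix which DNA the 3 Fos TAPEs below refer to.

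Fos enhancer 1 guide, TAPE 37.8 kb upstream: gaggagactaactgagcagc

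Fos enhancer 2 guide, TAPE 18.5 kb upstream: gcctgttgtcatgactgccg

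Fos enhancer 3 guide, TAPE 13.4 kb past the start: gggtgggggcctctgacggg

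The study designed RNAs of 150 bases from conserved regions of the outer pair of these enhancers. These RNAs are chosen stretches and do not show where an eRNA of this locus starts or ends. Neither holds a CRE (TGACGTCA), a CRE half-site (TGACG), an AP-1 site (TGANTCA) or a CArG box on either strand, which says only that those letters are not in these windows.

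Fos eRNA1: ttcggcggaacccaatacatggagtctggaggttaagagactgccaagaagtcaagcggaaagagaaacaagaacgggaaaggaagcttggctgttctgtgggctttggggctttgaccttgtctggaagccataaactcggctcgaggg

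Fos eRNA3: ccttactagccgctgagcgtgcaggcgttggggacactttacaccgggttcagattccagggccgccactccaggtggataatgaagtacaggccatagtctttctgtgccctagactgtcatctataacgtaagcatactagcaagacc

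Tests compared KCl with vehicle on log2(CPKM + 0.05), where CPKM is reads per kilobase of TAPE and per M library reads. A limma fit over the 6 cortex libraries was used, with Benjamini-Hochberg adjustment over the 1870 tested TAPEs. KCl raised RNA at 6 TAPEs (0.321% of those tested, adjusted p under 0.05) and lowered it at 0 (0%). Without adjustment, 73 TAPEs were higher (3.90%) and 122 lower (6.52%) at a p under 0.05. The 3 KCl libraries lay wholly above the 3 vehicle libraries at 110 TAPEs (5.88%) and wholly below at 197 (10.5%). Most TAPEs thus leaned slightly down, with 40.5% above 0 and a median log2 change of -0.091, while the 6 called TAPEs had changes of 1.43 to 2.51. A TAPE near Klf4 that did not pass lay within that range, at 1.53. The last TAPE called had an adjusted p of 0.043 in limma and the next one 0.089.

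**Figure D1:**
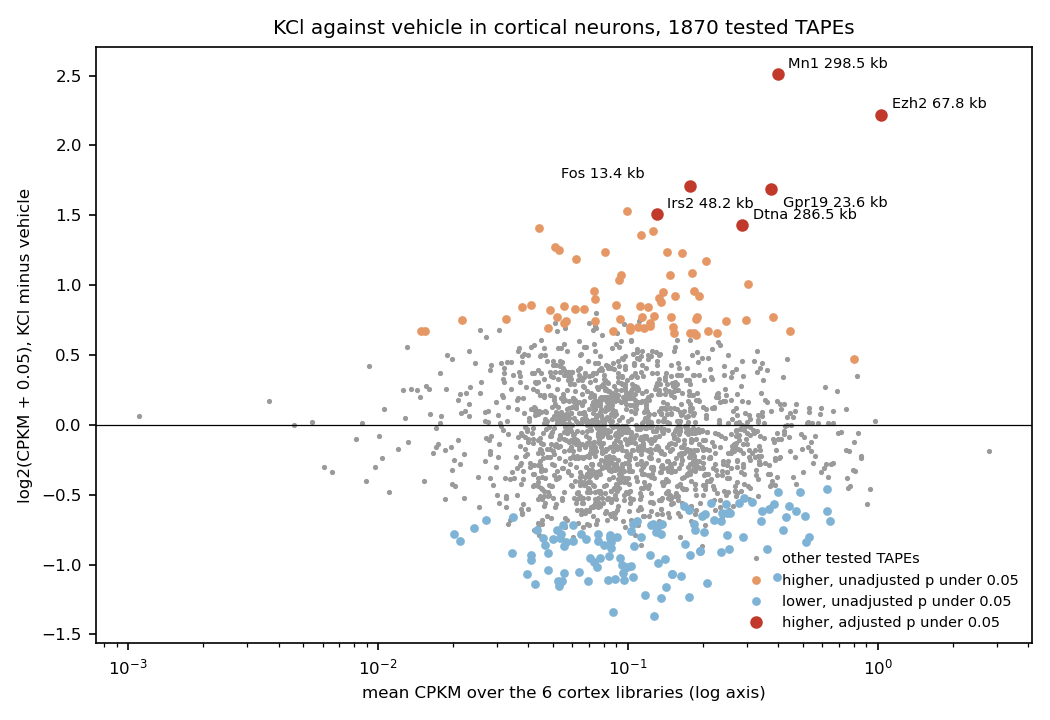
Log2 change at each of the 1870 tested TAPEs (y axis, log2(CPKM + 0.05), KCl minus vehicle) against its mean CPKM over the 6 cortex libraries (x axis, log scale), with each point 1 TAPE. The 6 TAPEs past the adjusted threshold are labelled with the nearest gene and the distance to its start site, and lie between 1.43 and 2.51, a range that also holds 1 TAPE that did not pass.

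The smallest p-value belonged to a TAPE 67.8 kb upstream of Ezh2, the catalytic subunit of the Polycomb complex that methylates histone H3 at lysine 27. This TAPE (Rn6 chr4:77413446-77416130, intergenic) stood at 1.53, 1.79 and 1.88 CPKM with KCl and at 0.299, 0.370 and 0.326 CPKM with vehicle. Every KCl library was several times above every vehicle library. The means were 1.73 ± 0.181 and 0.332 ± 0.0359 CPKM (SD, n = 3). On the log2 scale the TAPE rose by 2.22 ± 0.19 (SE, limma adjusted p = 2.9e-06).

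The change of the gene Ezh2 itself did not pass, with 35.0, 30.8 and 34.3 RPM under KCl and 32.4, 32.9 and 35.5 RPM under vehicle. The groups overlapped, and the log2 change of Ezh2 was -0.011 (limma adjusted p = 0.96). A cluster of zinc finger genes lies on the same stretch. Zfp786, 95.4 kb from the TAPE, fell by 0.45 and Zfp956, 208.8 kb away, fell by 0.35 on the log2 scale (limma adjusted p = 0.006 and 0.042). Zfp398, Zfp282 and Zfp212 between them had log2 changes of -0.24, -0.16 and -0.25 that did not pass the test. The deposited cortex correlations of this TAPE with the 5 zinc finger genes were -0.97 (Zfp786), -0.92 (Zfp398), -0.79 (Zfp282), -0.85 (Zfp212) and -0.86 (Zfp956). These correlations, like all those given here, run over 6 libraries in 2 groups, so they mostly restate the difference between KCl and vehicle.

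A TAPE 298.5 kb from Mn1 on its 3' side (chr12:50950307-50953159) had the largest change, 2.51 ± 0.28 (log2 ± SE, limma adjusted p = 9.1e-05). Mn1 is a transcriptional coregulator. KCl libraries stood at 0.710, 0.654 and 0.753 CPKM and vehicle libraries at 0.141, 0.0387 and 0.0885 CPKM, with a wide gap between the groups. Mn1 was the nearest gene and the one with the highest cortex correlation (0.97). Its own RNA rose from 83.4, 86.2 and 88.8 RPM under vehicle to 146, 134 and 132 RPM under KCl (log2 change 0.67, limma adjusted p = 6.5e-06). Of the other tested TAPEs of Mn1, the one at 48.9 kb had a log2 change of 0.83 (unadjusted p = 0.049) and the one at 247.7 kb of -0.16.

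The TAPE 13.4 kb past the Fos start (chr6:109311940-109315695, the third guide above) stood at 0.338, 0.309 and 0.249 CPKM with KCl and at 0.0512, 0.0477 and 0.0712 CPKM with vehicle. No KCl library came near a vehicle library, and the log2 change was 1.71 ± 0.28 (limma adjusted p = 0.0068). The call was lost without KCl replicate 1, KCl replicate 2 or vehicle replicate 2 (limma adjusted p up to 0.087 with 1 library left out). Fos RNA rose from 25.8, 32.9 and 21.0 RPM to 401, 379 and 382 RPM, a log2 change of 3.86 ± 0.12 (limma adjusted p = 2.5e-10). The cortex correlation of TAPE and gene was 0.98. Among the other genes within 250 kb, Jdp2, a repressor that pairs with Jun proteins, had a log2 change of 0.28 (limma adjusted p = 0.094), and Tmed10, Nek9, Acyp1 and Mlh3 did not pass either.

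The other 2 guided Fos TAPEs did not pass the adjusted test. At 37.8 kb upstream (chr6:109261263-109264039) KCl gave 0.116, 0.0848 and 0.0842 CPKM and vehicle gave 0.0115, 0.00993 and 0.0107 CPKM. The libraries did not overlap, and the log2 change of 1.25 ± 0.31 had an unadjusted p of 8.7e-04 and a limma adjusted p of 0.12. At 18.5 kb upstream (chr6:109280836-109283088) KCl gave 0.0956, 0.0523 and 0.0130 CPKM and vehicle gave 0.0854, 0.0490 and 0.0527 CPKM. These overlapped entirely, with a log2 change of -0.18 ± 0.36 (limma adjusted p = 0.9).

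The TAPE 23.6 kb past the start of Gpr19 (chr4:168632041-168634201), an orphan G protein-coupled receptor gene, rose from 0.111, 0.191 and 0.151 CPKM to 0.588, 0.498 and 0.697 CPKM. The lowest KCl value was above the highest vehicle value by more than the range of either group, and the log2 change was 1.69 ± 0.25 (limma adjusted p = 0.0019). Several genes around it rose too. Gpr19 changed by 1.15 on the log2 scale (limma adjusted p = 1.2e-05), Cdkn1b, the cell cycle inhibitor p27 56.0 kb away, by 0.50 (limma adjusted p = 1.0e-04), and Dusp16, a MAP kinase phosphatase 115.9 kb away, by 0.58 (limma adjusted p = 7.9e-04). Farther off, Gprc5a at 199.8 kb changed by 1.85 and Emp1 at 514.1 kb by 0.76 (limma adjusted p = 5.7e-05 and 0.0089). Crebl2, Apold1, Ddx47 and Borcs5 in the same interval did not pass. A second TAPE of the locus, 10.1 kb upstream of Gpr19, had 0.325 CPKM with KCl and 0.349 CPKM with vehicle in the means, a log2 change of -0.08.

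The TAPE 48.2 kb from Irs2 (chr16:83871649-83873558) stood at 0.180, 0.211 and 0.260 CPKM with KCl and at 0.0336, 0.0361 and 0.0622 CPKM with vehicle. The groups did not overlap, and the log2 change was 1.51 ± 0.31 (limma adjusted p = 0.043). Irs2, the adaptor that carries insulin and IGF receptor signals, rose from 72.4, 74.4 and 76.7 RPM to 229, 213 and 203 RPM (log2 change 1.52, limma adjusted p = 2.0e-09). A further 2 of the TAPEs of Irs2 were tested. The one 28.0 kb upstream had a log2 change of 1.36 and the one 43.4 kb past the start of 0.67 (unadjusted p = 0.0036 and 0.023). The call at 48.2 kb is the weakest of the 6: it was lost when any 1 of the 6 libraries was left out, with limma adjusted p-values from 0.051 to 0.22.

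The last called TAPE (chr18:14755646-14759686) lies 286.5 kb from the start of Dtna, which encodes a dystrophin-associated protein. It rose from 0.171, 0.0819 and 0.154 CPKM to 0.491, 0.429 and 0.398 CPKM, with every KCl library above every vehicle library (log2 change 1.43 ± 0.26, limma adjusted p = 0.019). The call was lost without any 1 of the KCl libraries and without vehicle replicate 2 (limma adjusted p up to 0.13 with 1 library left out). Reads of Dtna could not be recovered. Nol4, 741.0 kb away, had the highest cortex correlation (0.98) and rose by 0.22 on the log2 scale (limma adjusted p = 0.037).

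**Figure D2:**
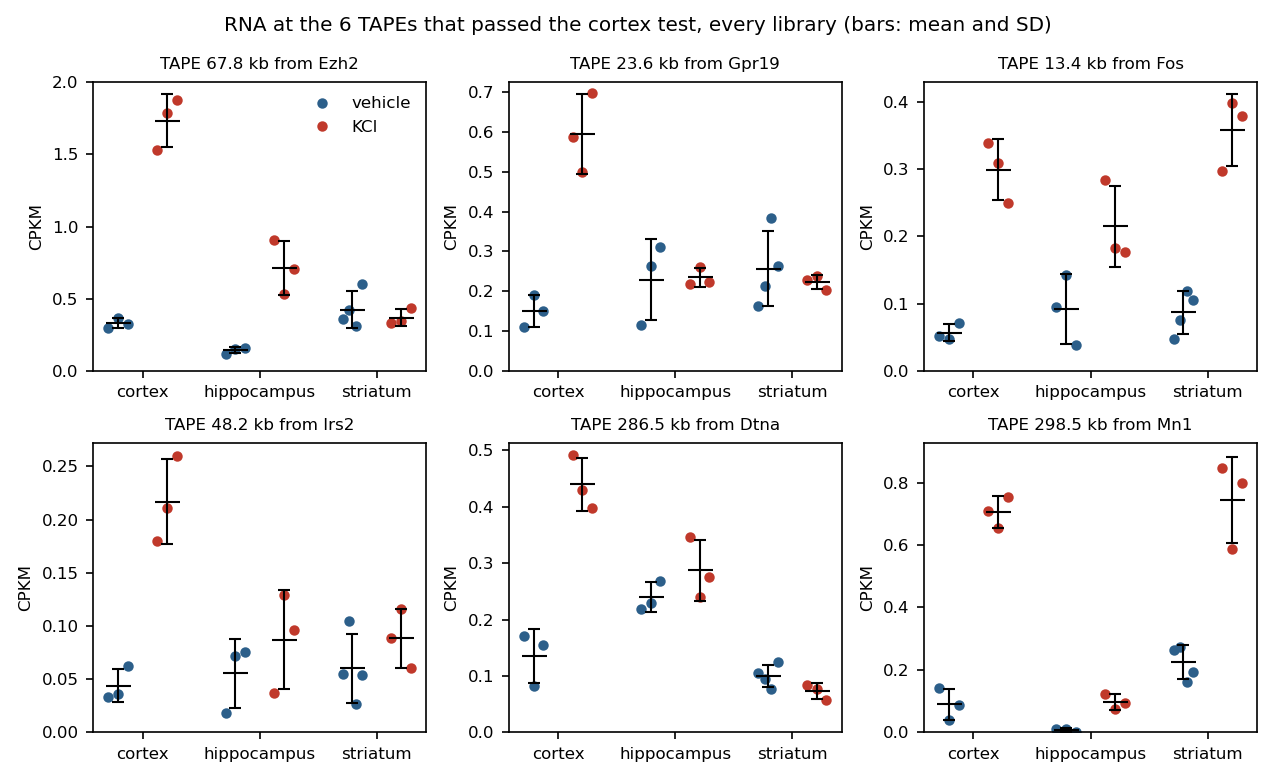
CPKM in every library (y axis, from 0) at the 6 TAPEs that passed the cortex test, by region and treatment, with points for libraries and bars for mean and SD. In each panel the 3 cortex KCl libraries lie above the 3 cortex vehicle libraries, while KCl and vehicle libraries of hippocampus and striatum overlap at some of the TAPEs.

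The change in cortex was set against the mean of the changes in hippocampus and striatum in 1 limma fit over all 19 libraries. It was larger in cortex at 3 TAPEs (0.160% of 1870, all 3 larger), which were among the 6. Without adjustment the difference was positive at 81 TAPEs and negative at 44 at a p under 0.05. The Gpr19 TAPE changed by 1.69 in cortex against 0.10 in hippocampus and -0.12 in striatum, a difference of 1.69 ± 0.34 (log2 ± SE, limma adjusted p = 0.025). KCl libraries of hippocampus stood at 0.219 to 0.261 CPKM there and its vehicle libraries at 0.115 to 0.310 CPKM, so these overlapped. The Dtna TAPE changed by 1.43 in cortex against 0.21 and -0.29, a difference of 1.46 ± 0.31 (limma adjusted p = 0.033).

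The Ezh2 TAPE differed by 1.32 ± 0.27 (limma adjusted p = 0.025). It changed by 1.95 in hippocampus (limma adjusted p = 0.024), where KCl libraries stood at 0.532 to 0.906 CPKM and vehicle libraries at 0.119 to 0.162 CPKM. In striatum it changed by -0.14, so the difference rests on striatum. The difference of the other 3 called TAPEs did not pass. Mn1 and Fos TAPEs changed by 1.54 and 1.60 in striatum (limma adjusted p = 0.0026 and 0.011), and Irs2 by 0.37 in hippocampus and 0.35 in striatum. Against hippocampus alone 0 TAPEs passed, and leaving out 1 cortex library left 0 to 2.

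Below the adjusted threshold, the next TAPEs in order of p included those upstream of the early genes Klf4 and Fosb. The TAPE 120.4 kb upstream of Klf4, a Krüppel-like factor, stood at 0.108, 0.155 and 0.256 CPKM with KCl and at 0.0402, 0.0230 and 0.0124 CPKM with vehicle (log2 change 1.53, limma adjusted p = 0.089). Klf4 itself changed by 5.29. Vehicle libraries of this TAPE stood at 0.00757 to 0.0591 CPKM in hippocampus and at 0 to 0.0793 CPKM in striatum. The mean over all vehicle libraries stayed below 0.05 CPKM. The TAPE therefore met the filter only through KCl libraries, so its p-value carries that selection. The TAPE 32.8 kb upstream of Fosb, which lies 2.4 kb upstream of the repair gene Ercc1, stood at 0.227, 0.237 and 0.149 CPKM against 0.0251, 0.0431 and 0.0755 CPKM (log2 change 1.39, limma adjusted p = 0.098). It had cortex correlations of 0.92 with Fosb, 0.96 with Relb, an NF-kappaB subunit, and 0.30 with Ercc1. A further 2 TAPEs completed this group. The one 3.1 kb upstream of LOC303566 had no read in any cortex vehicle library and 0.0471 to 0.136 CPKM (6 to 20 reads) with KCl. Vehicle libraries reached at most 0.0330 CPKM in hippocampus and 0.0376 CPKM in striatum. This TAPE therefore met the filter of 0.05 CPKM only through KCl libraries. The one 23.4 kb upstream of Kdm7a, a histone demethylase, changed by 1.23 (limma adjusted p = 0.089 for both).

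Around Fosb, an AP-1 subunit whose stable splice form accumulates with repeated activity, the 4 TAPEs within 100 kb were tested and lie upstream. Their log2 changes were 1.07 at 10.3 kb, 0.66 at 17.1 kb, 0.43 at 23.4 kb and 1.39 at 32.8 kb upstream, with unadjusted p-values of 0.0075, 0.044, 0.18 and 5.2e-04. The nearest, the target of the Fosb guides, stood at 0.201, 0.360 and 0.109 CPKM with KCl and at 0.0523, 0.0963 and 0.0692 CPKM with vehicle. The groups were apart, though the KCl libraries spread more than 3 times between lowest and highest. Fosb RNA rose from 4.09, 6.08 and 4.20 RPM to 301, 306 and 312 RPM (log2 change 5.88, limma adjusted p = 4.5e-12), the largest change of any tested gene.

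Around Nr4a1, an orphan nuclear receptor, the 3 tested TAPEs lie 14.8, 20.2 and 24.8 kb upstream and had log2 changes of 0.96, 0.74 and 1.09 (unadjusted p = 0.0038, 0.056 and 0.003). The one at 14.8 kb (chr7:142890056-142891915), where the Nr4a1 guides lie, stood at 0.220, 0.298 and 0.252 CPKM with KCl and at 0.155, 0.104 and 0.0719 CPKM with vehicle, without overlap. Past the gene, at 49.6 to 83.8 kb, TAPEs were too low to test, with means of at most 0.0521 CPKM under KCl and 0.0380 CPKM under vehicle. Nr4a1 RNA rose from 22.8, 26.2 and 23.1 RPM to 386, 403 and 382 RPM (log2 change 4.0, limma adjusted p = 1.2e-12). The gene Grasp also rose, by 0.93 on the log2 scale (limma adjusted p = 1.1e-04). Its start lies 11.2, 15.8 and 21.2 kb from the TAPEs at 24.8, 20.2 and 14.8 kb. In that order, their cortex correlations were 0.88, 0.83 and 0.85 with Grasp and 0.82, 0.69 and 0.92 with Nr4a1.

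**Figure D3:**
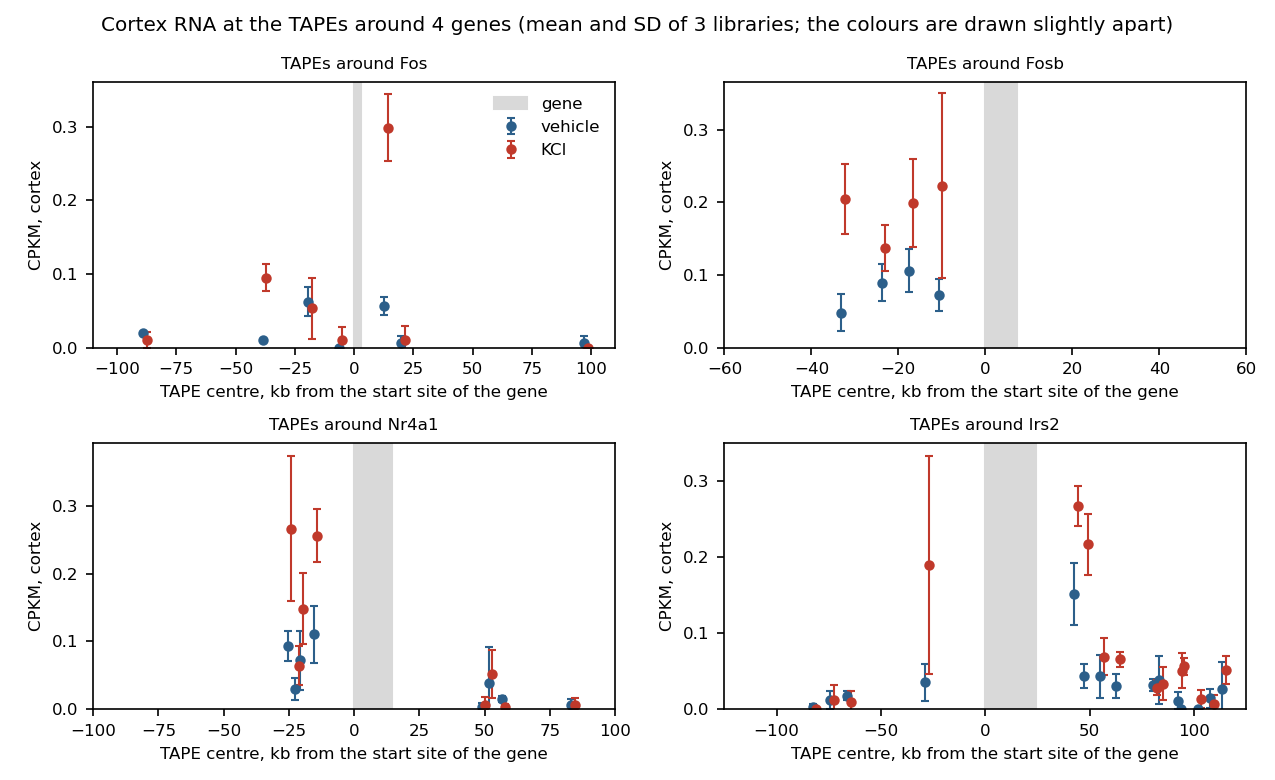
Mean CPKM in cortex (y axis, from 0; bars SD, n = 3) of each TAPE around Fos, Fosb, Nr4a1 and Irs2 against the position of its centre in kb from the gene's start site, negative upstream, with the gene as a grey band. At Fos the TAPEs at -37.8 and 13.4 kb are higher with KCl and the one at -18.5 kb is not, whereas the KCl mean is above the vehicle mean at all 4 TAPEs of Fosb.

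A large change of a gene did not always come with a change at its TAPEs that passed. Tested TAPEs within 50 kb of the listed activity genes numbered 19, and 1 of them, the Fos TAPE, passed the adjusted threshold, against 0.321% of all tested TAPEs. The TAPE 13.3 kb upstream of Btg2 stood at 0, 0.0429 and 0.112 CPKM with KCl and at 0.0136, 0.0587 and 0.0632 CPKM with vehicle, while Btg2, an antiproliferative cofactor, changed by 3.19. The TAPE 18.6 kb upstream of Crem, a CRE-binding modulator, stood at 0.0553 to 0.124 CPKM against 0.0264 to 0.136 CPKM, while Crem changed by 2.65. Both pairs of groups overlapped. The TAPE 6.7 kb upstream of Arc, the synaptic capsid-like protein gene, had a log2 change of 0.63 (limma adjusted p = 0.5) and Arc of 5.16. Dusp4 had TAPEs at 2.4 and 16.4 kb with changes of 0.38 and -0.041, beside 0.63 for the gene.

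Over all 31 tested TAPEs within 100 kb of a listed activity gene, the median log2 change was 0.32, against -0.091 over all 1870. Of the 31, 9 were higher at an unadjusted p under 0.05 (29.0%, against 3.90% of all) and 0 were lower (0%, against 6.52%). In all, 20 of the 31 (64.5%) lay above 0, against 40.5% of all tested TAPEs. Several of these TAPEs share a locus, so they are not independent of each other. The gene lists that picked them were written with earlier results of these data known, so these shares are no independent evidence. Only 20 of the 76 listed genes had a tested TAPE within 100 kb, although 64 had a TAPE of any depth there.

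Lower TAPEs named by the same rule did not pass the adjusted test. The 10 with the smallest p had log2 changes from -0.80 to -1.37 and limma adjusted p-values from 0.11 to 0.21. The most complete separation was 71.0 kb upstream of Gse1, a coregulator gene, at 0.0104, 0.0407 and 0.0354 CPKM with KCl against 0.148, 0.147 and 0.144 CPKM with vehicle. Gse1 changed by -0.086 (limma adjusted p = 0.66). The TAPE 19.9 kb from Adnp2 stood at 0.226, 0.327 and 0.161 CPKM against 0.640, 0.413 and 0.609 CPKM, and Adnp2 changed by -0.062. None of the 9 nearest genes with a test among these 10 TAPEs passed. They were Adnp2, Gse1, Zbtb2, Celf2, Cst3, Mief2, Nfic, Bmpr1b and Lmf1, with log2 changes from -0.31 to 0.10. Some genes farther off did. Sox8, a SoxE transcription factor gene 5.0 kb from the TAPE near Lmf1, fell by 0.28 on the log2 scale (limma adjusted p = 0.0091). Alkbh5, an RNA demethylase gene 71.5 kb from the TAPE near Mief2, rose by 0.27 and Pqlc1, 136.8 kb from the TAPE near Adnp2, by 0.37 (limma adjusted p = 0.035 and 0.011). Beyond 250 kb, genes called higher around the TAPE near Nfic were Gadd45b (3.44), Klf16 (0.63) and Dot1l (0.45). Others were Rasd1 (0.97) around the TAPE near Mief2, Ctdp1 (0.48) and Nfatc1 (0.43) near Adnp2, and Slc7a5 (0.29) near Gse1. Of these called genes, Sox8 alone fell.

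Genes around the TAPEs were next compared across the table. Reads per gene were solved from the deposited correlations of each gene with TAPEs whose reads are known, and a gene solved from the cortex correlations alone may be scaled by a whole number, which leaves its fold change almost as it is. Of 17038 genes with a cortex profile, the 3 KCl libraries lay wholly above vehicle in 1321 (7.75%) and wholly below in 1800 (10.6%). A limma fit on log2(RPM + 0.5), added after the data were seen, called 547 of 11015 genes with a mean of at least 1 RPM higher (4.97%) and 100 lower (0.908%). Genes called higher had a median log2 change of 0.51 and reached 5.88, and 107 of them changed by 1 or more. Genes called lower had a median of -0.38 and reached -0.95.

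The share of TAPEs with a gene called higher nearby was largest among the TAPEs that were themselves higher. Of the 73 TAPEs higher at an unadjusted p under 0.05, 51 had a tested gene within 100 kb, and for 23 of those (45.1%) at least 1 such gene was called higher. The share was 15.3% (180 of 1173) over all tested TAPEs and 6.41% (5 of 78) over the 122 lower ones. Within 50 kb the 3 shares were 45.0%, 12.2% and 3.57%, and within 1000 kb 64.4%, 44.5% and 35.9%. The nearest gene was called higher for 19 of 52 higher TAPEs (36.5%) and for 2 of 83 lower TAPEs (2.41%), against 9.72% over all. These are counts without a test, and neighbouring TAPEs share genes. Genes called lower were few throughout: 1 of 51, 2 of 78 and 30 of 1173 TAPEs had one within 100 kb. Across 1296 TAPEs with a tested nearest gene, TAPE change and gene change correlated with r = 0.25, a description over points that share the same 6 libraries.

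**Figure D4:**
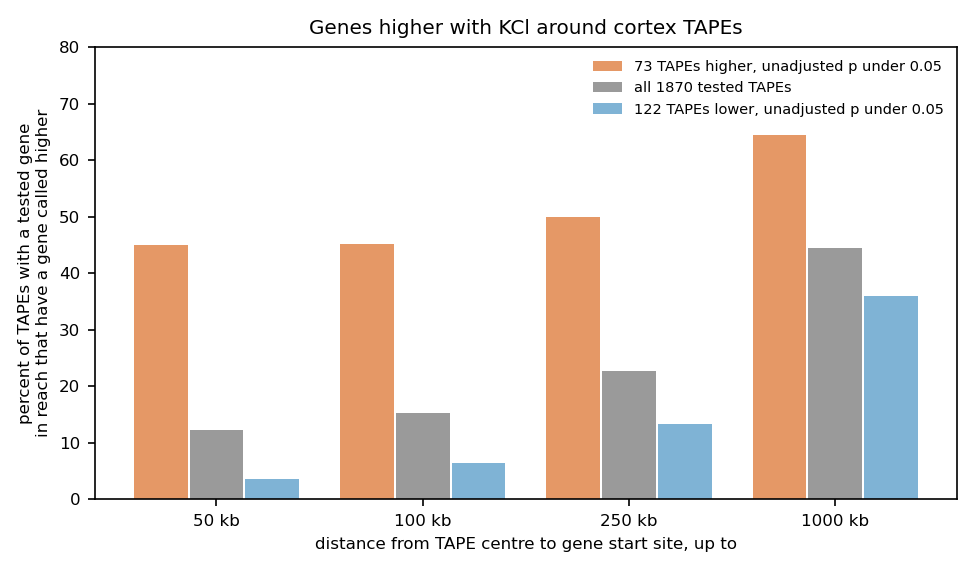
Percent of TAPEs with at least 1 gene called higher with KCl in cortex (y axis, from 0), among those with a tested gene in reach, by maximum distance from the TAPE centre to the gene's start site (x axis). Bars for the 73 higher TAPEs stand at 45.1% within 100 kb, those for all tested TAPEs at 15.3% and those for the 122 lower TAPEs at 6.41%, and the gap narrows at 1000 kb.

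Seen from the genes, 180 tested TAPEs lay within 100 kb of the 547 genes called higher, with a median log2 change of 0.10. Of these TAPEs 12.8% were higher and 2.78% lower at an unadjusted p under 0.05, against 4.35% and 6.65% of TAPEs near any tested gene. Near the 100 genes called lower the 30 TAPEs had a median of -0.15, 1 was higher and 2 were lower.

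Early transcription factors had the highest median change of the 3 activity lists. Of the 28 tested from a list of 30, 24 rose and 0 fell, with a median log2 change of 2.28 against -0.041 over all tested genes. Among the Egr zinc finger factors, Egr4 rose from 2.98, 3.12 and 2.33 RPM to 94.2, 91.5 and 95.2 RPM (log2 change 4.84, limma adjusted p = 4.5e-12). Klf4 rose from 1.68, 1.77 and 0.817 RPM to 78.0, 72.7 and 66.8 RPM (log2 change 5.29, limma adjusted p = 4.3e-10). Both pairs of groups were more than 10-fold apart. Egr2, Egr1 and Egr3 changed by 3.70, 2.89 and 2.54, Junb by 4.10, Nr4a3 by 1.55 and Srf by 0.71. Klf6, Ier5, Bcl6 and Bhlhe40 did not pass, with log2 changes of 0.19, 0.20, -0.08 and 0.058. Reads of Npas4 and Nr4a2 could not be recovered.

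Effectors rose in 23 of 26 tested genes from a list of 31, with a median of 1.28 and 0 lower. Arc rose from 3.06, 2.79 and 2.48 RPM to 127, 114 and 109 RPM (log2 change 5.16, limma adjusted p = 1.8e-12). Cyr61, a matricellular protein gene, changed by 4.73, Gadd45g and Gadd45b, stress-inducible growth arrest genes, by 3.50 and 3.44, and Tiparp, a mono-ADP-ribosyltransferase gene, by 2.75. Bdnf, the neurotrophin, rose from 59.7, 65.0 and 56.4 RPM to 180.2, 163 and 165 RPM (log2 change 1.48, limma adjusted p = 9.6e-09). Among secreted proteins and their processing enzymes, Pcsk1, a prohormone convertase, rose by 1.96, Vgf by 0.99, Nptx2 by 0.93 and Scg2 by 0.74. Nrn1, Inhba and Sgk1 did not pass (0.34, -0.12 and 0.15).

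Regulators that damp the signal rose in 10 of 12 tested genes from a list of 15, with a median of 0.97 and 0 lower. Dusp1, a MAP kinase phosphatase, rose from 19.3, 23.3 and 17.4 RPM to 183, 173 and 172 RPM (log2 change 3.12, limma adjusted p = 1.3e-10). Sik1, a kinase that holds back the CREB coactivators, rose from 48.6, 51.3 and 46.9 RPM to 223, 203 and 203 RPM (log2 change 2.09, limma adjusted p = 1.3e-10). Dusp14, Nfkbia, Dusp5 and Dusp6 changed by 1.58, 1.33, 1.15 and 1.00. Dusp2 and Spred1 did not pass (-0.027 and 0.057). Together 57 of the 66 tested genes of the 3 lists rose, with a median of 1.40, against 4.97% of all genes called higher. The lists were written with earlier results of these data known and are no independent evidence of that direction.

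The change of genes in cortex was also set against the mean of the other regions. This fit took the 7667 genes whose reads were solved over all 19 libraries with a mean of at least 1 RPM. The difference on the log2 scale was positive for 215 genes (2.80%) and negative for 25 (0.326%). A negative difference can be a smaller rise or a deeper fall in cortex, and a positive one a larger rise or a shallower fall. Of 54 activity genes in that fit, 28 differed upward and 3 downward. The widest gap was at Arc, which changed by 5.16 in cortex, 1.94 in hippocampus and 3.71 in striatum, a difference of 2.33 ± 0.12 (limma adjusted p = 4.9e-12). Klf4 changed by 5.29, 3.77 and 2.19, and Egr4 by 4.84, 1.83 and 3.59. Klf6 had a smaller change in cortex than that mean: it changed by 0.19 in cortex, 1.27 in hippocampus and 0.33 in striatum (difference -0.61 ± 0.054, limma adjusted p = 3.6e-08). Plk2, a kinase of synaptic homeostasis, changed by 0.67 in cortex, 1.19 in hippocampus and 1.21 in striatum (difference -0.53). Nfil3, a bZIP factor, changed by 1.06, 1.73 and 1.06, so its difference of -0.34 rests on hippocampus. Egr1 changed by 2.89, 0.81 and 2.91, and its difference of 1.03 likewise rests on hippocampus. Fosb changed by 5.88 in cortex, 5.85 in hippocampus and 3.71 in striatum.

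**Figure D5:**
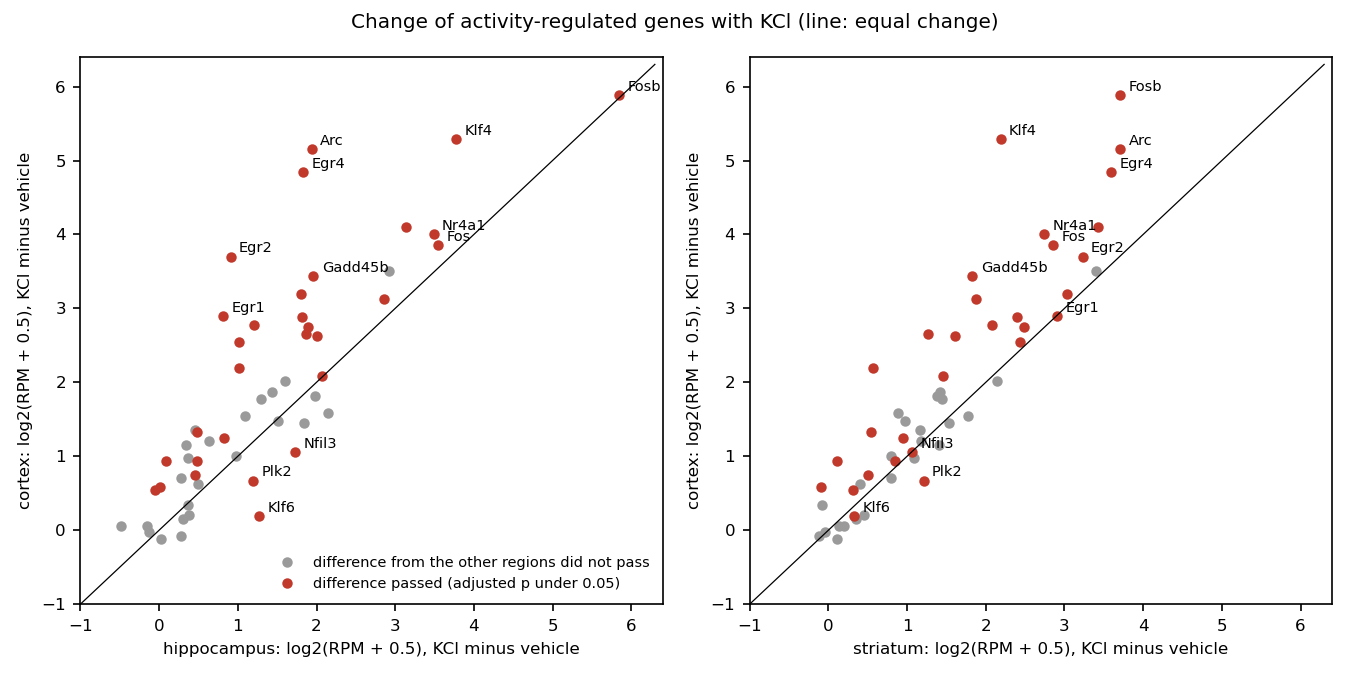
Log2 change with KCl of the 54 activity genes in cortex (y axis) against hippocampus (left) and striatum (right), on log2(RPM + 0.5), with a line of equal change and each point 1 gene. The 28 genes with a larger and the 3 with a smaller change in cortex than in the mean of the other regions are in red, and Arc, Egr4 and Klf4 lie above the line in both panels.

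Promoters were read for the genes with an entry in RefSeq on the GRCr8 assembly, 8729 of the 11015 tested genes, over the 250 bases before each start and on both strands. A CRE (TGACGTCA) was present in 42 of 431 promoters of genes called higher (9.74%), against 3.1% of all tested genes and 1.28% of genes called lower. Its half-site (TGACG), which every CRE contains, was present in 49.4%, 28.4% and 23.1%, and in 55.2% of the 58 listed activity genes with an entry. The CArG box was present in 10.3% of those 58 and in 1.15% of all tested genes. Among genes called higher its share was 1.86% (8 of 431), and among genes called lower 2.56% (2 of 78). AP-1 sites (TGANTCA) were in 6.03% of genes called higher, 3.64% of tested genes and 0% of the listed activity genes. In the whole table of 27457 promoters the shares were 1.7% (CRE), 19% (half-site), 6.36% (AP-1) and 1.5% (CArG box). These are matches of letters, not measured binding.

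The 4 promoters printed here belong to early genes described above and were chosen because they carry these motifs, shown in capitals. The windows of Fosb and Klf4, the genes with the largest changes named here, hold 0 of the motifs searched. G and C make up 43.6% and 43.2% of those windows, against 62.0% to 74.8% in the 4 printed below. Whether the RefSeq starts of Fosb and Klf4 are their transcription start sites was not tested. The 0 therefore describes these windows and not necessarily their promoters. Nr4a1 has 4 half-sites, Btg2 a CRE, Egr2 a CArG box and a half-site, and Dusp1 a CRE and a separate half-site. Coordinates are GRCr8 and sequences run 5' to 3' on the strand of the gene.

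Nr4a1, chr7:134259888-134260137 (+): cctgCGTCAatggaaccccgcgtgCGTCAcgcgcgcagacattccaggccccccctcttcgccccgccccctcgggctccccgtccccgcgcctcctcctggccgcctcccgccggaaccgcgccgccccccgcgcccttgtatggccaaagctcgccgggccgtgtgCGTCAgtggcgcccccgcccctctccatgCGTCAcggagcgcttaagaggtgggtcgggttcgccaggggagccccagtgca

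Btg2, chr13:48087691-48087940 (-): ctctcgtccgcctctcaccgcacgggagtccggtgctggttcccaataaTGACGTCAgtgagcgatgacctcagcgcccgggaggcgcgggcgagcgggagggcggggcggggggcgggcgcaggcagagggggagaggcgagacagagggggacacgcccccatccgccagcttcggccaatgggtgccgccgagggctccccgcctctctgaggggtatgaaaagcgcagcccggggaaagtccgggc

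Egr2, chr20:21054442-21054691 (-): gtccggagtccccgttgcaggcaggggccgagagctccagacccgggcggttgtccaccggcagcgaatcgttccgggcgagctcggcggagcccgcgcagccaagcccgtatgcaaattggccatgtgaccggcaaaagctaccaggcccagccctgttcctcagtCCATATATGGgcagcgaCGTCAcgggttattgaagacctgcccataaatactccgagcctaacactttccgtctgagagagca

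Dusp1, chr10:17184603-17184852 (+): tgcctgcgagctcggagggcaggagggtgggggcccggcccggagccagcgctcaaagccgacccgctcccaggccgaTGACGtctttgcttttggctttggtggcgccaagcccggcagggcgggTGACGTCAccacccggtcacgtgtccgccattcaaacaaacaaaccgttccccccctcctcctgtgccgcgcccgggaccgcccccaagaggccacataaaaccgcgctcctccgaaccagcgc

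Genes outside the lists, picked after their values were seen, rose as well. Fosl1, an AP-1 subunit, changed by 2.81, Ell2, a transcription elongation factor, by 1.92, Cwc25, a spliceosome factor, by 2.52, and Nfkbid, an inhibitor of NF-kappaB, by 1.93. The genes of the neighbouring microRNAs miR-132 and miR-212 changed by 2.05 and 2.14 (limma adjusted p = 4.0e-06 and 1.1e-06). Mir212 stood at 2.26 to 2.59 RPM with KCl against 0.128 to 0.207 RPM with vehicle, so the groups were far apart. It met the mean of at least 1 RPM needed for the test only through its KCl libraries, so its p-value carries that selection. These are reads over the genes in total RNA and say nothing of the mature forms. The mature sequences are shown because both share 1 seed (bases 2 to 8, in capitals), AACAGUC.

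rno-miR-132-3p: uAACAGUCuacagccauggucg

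rno-miR-212-3p: uAACAGUCuccagucacggcca

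Genes that fell, also picked after their values were seen, were led by a pair of related arrestin-domain genes. Arrdc3 fell from 47.1, 48.0 and 39.4 RPM to 19.7, 24.2 and 25.3 RPM (log2 change -0.95, limma adjusted p = 4.6e-05), and Txnip, the thioredoxin-binding protein that limits glucose uptake, from 21.6, 21.9 and 18.6 RPM to 9.31, 10.8 and 12.6 RPM (log2 change -0.90, limma adjusted p = 1.3e-04). Neither pair of groups overlapped. Both also had negative changes in hippocampus (-0.81 and -1.55) and striatum (-1.03 and -1.38). Ppp1r3c, a glycogen-targeting phosphatase subunit, fell by 0.75 in cortex and changed by -0.17 and -0.032 elsewhere (difference -0.65 ± 0.095, limma adjusted p = 8.1e-05). Hes5, a Notch target of progenitors, fell by 0.67.

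Most markers of cell types did not pass the test, and the counts below stand against 4.97% of all tested genes called higher and 0.908% called lower. Of 14 tested cortical projection neuron markers 2 rose, Neurod2 by 0.38 and Kcnf1 by 1.11, and 0 fell. Their summed level ran from 1472 to 1585 RPM with vehicle and from 1555 to 1581 RPM with KCl. Astrocyte markers summed to 1081 to 1110.4 RPM with vehicle and 1145 to 1272 RPM with KCl, where Sox9 rose by 0.30 and 6 others did not pass. Of the 6 interneuron and 7 oligodendrocyte lineage markers tested, 0 passed. Striatal markers had 3 of 13 higher (Penk by 0.75, Tac1 by 0.60 and Meis2 by 0.30) and hippocampal markers 2 of 6 (Prox1 by 1.06 and Lef1 by 0.45). Microglial Csf1r, Itgam and Tmem119 and endothelial Cldn5, Flt1 and Kdr stayed under 1 RPM in every cortex library. Of the mural and fibroblast genes, Pdgfrb stood at 9.56 to 12.1 RPM, Dcn at 10.2 to 13.6 RPM and Col1a1 at 0.0673 to 1.17 RPM, and the 2 of these that were tested, Pdgfrb and Dcn, did not pass. In bulk cultures fewer cells of a type and less RNA per cell cannot be told apart. Gapdh and Tbp did not pass, with log2 changes of -0.048 and -0.15.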

How the data were processed

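The authors trimmed reads with Trim Galore 0.4.5, aligned them with STAR to Rn6 with Ensembl genes, merged lanes with SAMtools 1.9, defined TAPEs from ATAC-seq and RNA-seq reads pooled over all samples, and counted both strands of each TAPE in SeqMonk. Their deposited TAPE values are RPKM (called CPKM in the study). The deposited correlations are a score from -1 to 1, the Pearson r of TAPE and gene computed by the authors over the libraries. Library totals were 46.4 to 72.5 M reads in cortex, and 100.0% of TAPE values gave whole reads within 0.05. Reads without molecular identifiers are not independent molecules.

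Cortex KCl libraries were compared with vehicle by title letter. TAPEs whose CPKM averaged 0.05 or more in the 19 libraries were fitted on log2(CPKM + 0.05) with limma 3.58.1 in R 4.3.3 (eBayes with a trend, two-sided, Benjamini-Hochberg). Fold changes on this scale understate low TAPEs. Gene reads were solved as whole numbers from the correlations for 86.7% of 17715 symbols (Python 3.11.15, numpy 2.4.6). For 8816 genes solved in 2 ways, all 8816 agreed up to a common factor, which was above 1 for 402. Of the tested genes, 3428 rest on the cortex correlations alone, so their level may be too low by such a factor. Whether gene reads were counted over exons only is not given in the sources used here. The planned gene comparison was library overlap without a p, since 3 against 3 cannot give an exact permutation p below 0.10, and the limma test of genes was added after the data were examined.

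Named TAPEs were those with an adjusted p under 0.05, the 10 higher and 10 lower with the smallest p among TAPEs without overlap, and those tested within 50 kb of a listed activity gene, with their nearest and best-correlated genes. The members, lists and tests were chosen with earlier results of these data known. Same-numbered libraries did not deviate together (r over TAPEs -0.042 and -0.011 for numbers 1 and 3, over genes -0.18, 0.14 and -0.28 for 1 to 3), so the main comparison is unpaired. No 2 libraries of a group agreed within sampling noise (chi-square over degrees of freedom 2.33 to 2.73). The recovery of gene reads and the main limma fits of TAPEs and genes were tested on simulated data.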

Additional observations from a re-analysis of the deposited data

Results flagged for a closer look

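The change with KCl in cortex differed from the mean change in hippocampus and striatum, in a limma contrast over 19 libraries, at 3 TAPEs, by 1.32 (Ezh2 67.8 kb), 1.69 (Gpr19 23.6 kb) and 1.46 (Dtna 286.5 kb) on the log2 scale. Leaving out 1 cortex library at a time left 0 to 2 of these past the adjusted threshold. The Ezh2 TAPE changed by 1.95 in hippocampus and -0.14 in striatum, so its difference rests on striatum.

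Among early transcription factors the difference was larger in cortex for Klf4 (2.31), Egr4 (2.12), Egr2 (1.63), Ier2 (1.13), Fosb (1.10), Crem (1.09), Egr1 (1.03), Nr4a1 (0.88), Junb (0.82), Egr3 (0.81), Maff (0.81), Csrnp1 (0.77), Btg2 (0.77), Fos (0.66), Klf10 (0.41) and Per1 (0.36). It was smaller for Klf6 (-0.61) and Nfil3 (-0.34). These differences are from the mean of 2 regions: Egr1 and Egr3 changed by 2.89 and 2.54 in cortex, by 2.91 and 2.44 in striatum and by 0.81 and 1.02 in hippocampus.

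Among effectors it was larger for Arc (2.33), Gadd45b (1.55), Coq10b (1.39), Nptx2 (0.64), Tiparp (0.57), Trib1 (0.41) and Scg2 (0.27), and smaller for Plk2 (-0.53). Among feedback regulators it was larger for Nfkbia (0.82), Dusp1 (0.75), Dusp16 (0.62), Spry1 (0.48) and Sik1 (0.32). Reads of all these genes were solved over the 19 libraries. The regions differ in marker levels such as those of Neurod6 and Ppp1r1b, whose part in the differences was not tested.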

How the results depend on the processing

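The count of 6 TAPEs was 0 with no filter on low values, 10 with libraries centred on their median, 12 with all 19 libraries in 1 fit, 3 with the replicate block and 3 to 5 with 1 library left out (3 without KCl replicate 1, KCl replicate 2 or vehicle replicate 2). The Ezh2, Gpr19 and Mn1 TAPEs were called in 15 of 16 alternatives, all but the one with no filter, Fos in 11 of 16, Dtna in 9 of 16 and Irs2 in 5 of 15. The replicate block ended the Fos, Irs2 and Dtna calls. The Fos call was also lost without KCl replicate 1, KCl replicate 2 or vehicle replicate 2 (highest limma adjusted p 0.087), and the Dtna call with no mean-variance trend and without any KCl library or vehicle replicate 2 (up to 0.13).

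The 3 TAPEs that differed between regions became 0 against hippocampus alone, 0 with a pseudocount of 0.01, 0 with no filter and 0 to 2 with 1 library left out. The median of 0.32 near activity genes was 0.52 within 50 kb, 0.18 within 250 kb, 0.18 with a pseudocount of 0.2, 0.39 with centred libraries and 0.26 to 0.45 with 1 library left out. Genes wholly lower with KCl numbered 1176 with the global correlations alone and 2464 to 3461 with 1 library left out, where fewer libraries must separate. Genes lower by limma fell from 100 to 45 with no filter and ran from 24 (without vehicle replicate 1) to 105 with 1 library left out. Genes with a positive difference between cortex and the other regions ran from 150 to 374 (without vehicle replicate 3). Those with a negative difference ran from 15 to 52, with 47 against striatum alone and 52 with centred libraries. Genes called higher ran from 375 to 611 over the alternatives.

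Direction changed for 5 TAPEs and 4 genes, none of which passed the main test. With 1 library left out, the TAPE log2 change ran from -0.47 to 0.13 at Fos 18.5 kb, -0.44 to 0.41 at Btg2 13.3 kb, -0.40 to 0.24 at Crem 18.6 kb, -0.28 to 0.61 at Lsm4 11.0 kb and -0.24 to 0.19 at Dusp4 16.4 kb. Centring gave 0.056 at Btg2 13.3 kb, 0.067 at Crem 18.6 kb and 0.034 at Dusp4 16.4 kb, a pseudocount of 0.2 gave 0.02 at Btg2, and one of 0.01 gave 0.058 at Crem. Among genes, leaving out 1 library gave -0.17 to 0.012 for Bcl6, -0.023 to 0.13 for Bhlhe40, -0.093 to 0.10 for Dusp2 and -0.047 to 0.045 for Ezh2, which was 0.013 with centred libraries. The cause of these changes was not tested. A tested TAPE held a median of 12 reads per cortex library, and the smallest change that this depth can show was not measured.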
